A study of Mus musculus with 69 samples.

Results

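Endothelial transcripts were followed in newly synthesised kidney RNA through 10 genes, Sox17, Pecam1, Kdr, Flt1, Cdh5, Emcn, Tek, Eng, Egfl7 and Plvap, of the 24411 genes in the count table. The genes were taken by symbol, and all 10 were found and passed the filter on low counts. Sox17 had been chosen by its higher RNA level after volume depletion, so its own values are given as a description without a test, and the question asked was whether the 9 other genes followed it. The counts of genes that passed a test therefore cover those 9 genes.

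The mice carried Uprt behind a stop cassette in the Rosa26 locus, which Cre removes, so that 4-thiouracil (4-TU) was built into new RNA mainly in Cre-expressing cells. Hoxb7Cre;UPRTf/+ mice express Uprt in the collecting duct, and Atp6b1v1Cre;UPRTf/+ mice (label spelling of the Atp6v1b1 driver) in its intercalated cells and in cells with both principal and intercalated markers. All mice, controls included, received 430 mg/kg 4-TU intraperitoneally 4 h before the kidneys were taken, and the labelled RNA was pulled down as biotinylated RNA. Ischemic injury (iAKI) was a clamp of both renal pedicles for 10 min studied 24 h later, and volume depletion (vAKI) was 72 h without food and water. Neither driver targets endothelium, labelling was weaker but present in mice without Cre, and the labels do not say whether each library came from a separate mouse, so the p-values measure the spread between libraries.

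The main comparison used 22 males of 5.5 months, with 4 control, 4 iAKI and 3 vAKI Hoxb7 pulldowns and 4 control, 3 iAKI and 4 vAKI Atp6b1v1 pulldowns. The 21 females of the same age comprised 4, 3 and 4 Hoxb7 and 4, 3 and 3 Atp6b1v1 pulldowns in the same order. Total kidney RNA was taken from controls alone, and the 42 control libraries of both sexes, aged 3 or 5.5 months, comprised 21 of total RNA, 10 Hoxb7 pulldowns and 11 Atp6b1v1 pulldowns. The total libraries came from mice of both genotypes and match the control pulldowns in genotype, sex and age. The labels do not say whether a total and a pulldown library came from the same kidney, and the comparison did not pair them.

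Endothelial cells line the blood vessels of the kidney, from the glomerular tuft to the fenestrated capillaries around the tubules and the vasa recta of the medulla. They are held together by adhesion molecules at their junctions and kept alive by vascular endothelial growth factor (VEGF), which kidney epithelia release, while angiopoietins and ligands of the bone morphogenetic protein (BMP) family set the stability of the vessel. Sox17 is a transcription factor best known for its part in arterial identity. Cdh5 (VE-cadherin) and Pecam1 (CD31) join neighbouring cells, Kdr and Flt1 are the receptors 2 and 1 of VEGF, Tek (Tie2) binds angiopoietins, and Eng (endoglin) is a co-receptor for BMP9. Egfl7 is a secreted matrix protein whose gene hosts the microRNA miR-126, Emcn (endomucin) is a surface sialomucin, and Plvap forms the diaphragms of fenestrae and caveolae.

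In the GRCm38 annotation the genes lie at chr1:4490931-4497354 (Sox17, minus strand), chr11:106654217-106750628 (Pecam1, minus), chr5:75932827-75978458 (Kdr, minus), chr5:147561604-147726011 (Flt1, minus), chr8:104101625-104144511 (Cdh5, plus), chr3:137341067-137432185 (Emcn, plus), chr4:94739289-94874976 (Tek, plus), chr2:32646595-32682669 (Eng, plus), chr2:26580014-26593120 (Egfl7, plus) and chr8:71497765-71511752 (Plvap, minus). Of their exonic bases, 16.8% of Sox17, 11.2% of Egfl7 and 1.51% of Eng are shared with another gene. The partner lies on the opposite strand for Sox17 and Eng and on either strand for Egfl7, and although the counting used HTSeq's default settings, which read strand, whether the library kit marked strand is not given in the sources used here, so reads from such a stretch may belong to either gene.

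Library totals ran from 12618062 to 30305464 counts (median 20868430) over the 69 libraries, and each level below is in CPM (counts scaled to a common library total) after one normalization of all libraries. The library numbers in the labels fall into 3 runs of consecutive numbers, called here series A, B and C, with 36, 21 and 12 libraries. The labels do not call them batches. Every Hoxb7 library of an injured kidney was in series A, as were 2 of the 4 Hoxb7 control males, and Kdr, Flt1 and Tek moved with the series. In total RNA Kdr was at 94.1 to 131 CPM in series A and at 35.9 to 75.7 in series B, Flt1 at 109 to 142 against 55.4 to 84.8, and Tek at 51.9 to 65.4 against 27.8 to 50.5. One further library stood apart, the female vAKI Atp6b1v1 pulldown 5, which had the lowest total and in which the 9 genes summed to 63.4 CPM, against 285 and 376 in the 2 other libraries of its group.

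**Figure D1:**
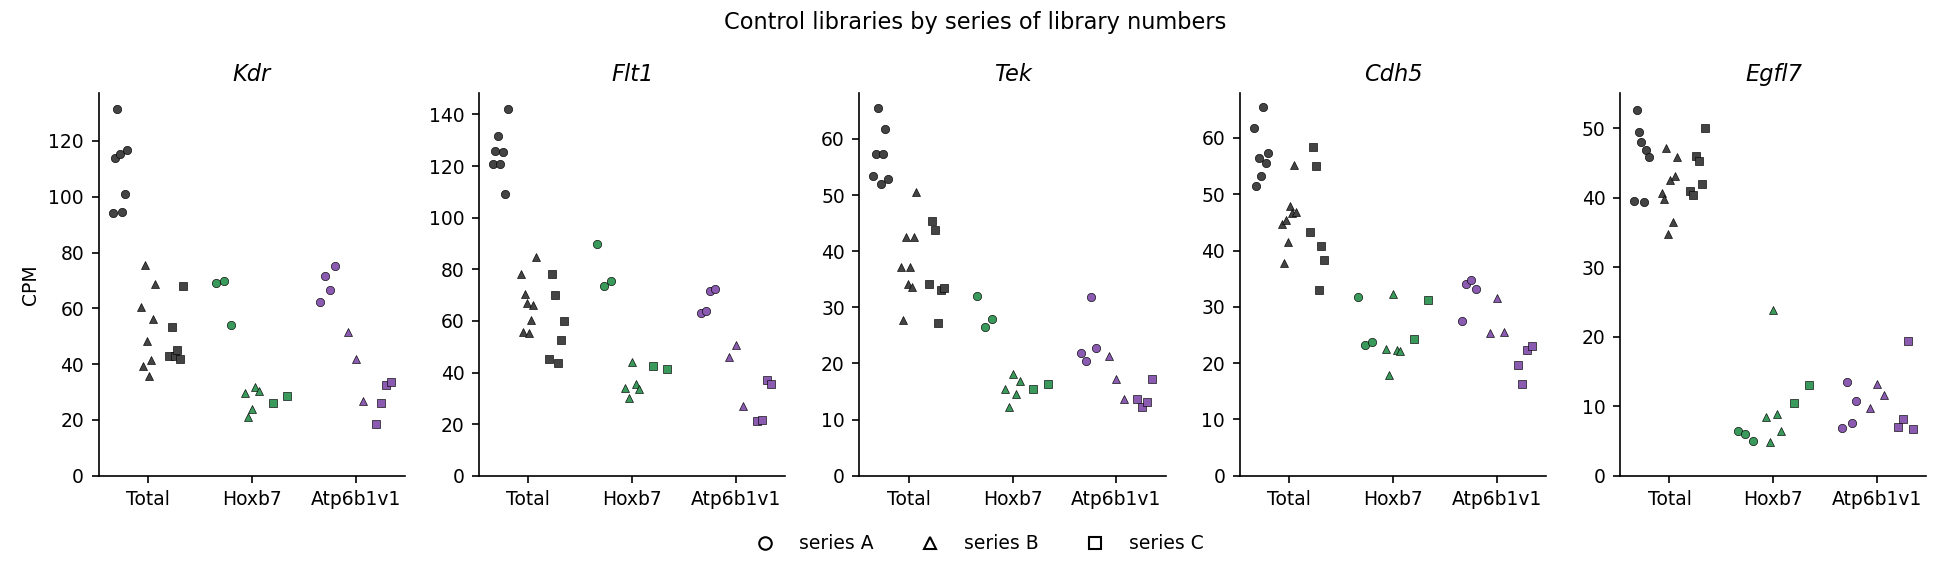
Levels of Kdr, Flt1, Tek, Cdh5 and Egfl7 in the 42 control libraries, in CPM on linear axes from 0; each point is a library of total kidney RNA or of a Hoxb7 or Atp6b1v1 pulldown, and its shape gives the series of library numbers. For Kdr, Flt1 and Tek the series A points of total RNA lie above all those of series B and C, and for Egfl7 the series overlap.

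The endothelial genes were lower in the pulldowns of uninjured kidneys than in total kidney RNA, but were measurable in every pulldown. A pulldown holds RNA made during the 4 h of labelling, and total RNA holds older RNA too. The paper names slow RNA turnover and uracil content as possible influences on what a pulldown holds. These were not tested here and cannot be told apart from the cells of origin. Against total kidney RNA each of the 9 genes was lower in the Hoxb7 and the Atp6b1v1 pulldown and passed an adjusted p of 0.05, and 6 of the 9 were called in each. Here and below a gene is called where it passes that p (edgeR's quasi-likelihood test, Benjamini-Hochberg adjustment over 21175 genes) and its log2 fold change is 1 or more in size. Of all genes 17.9% were called lower in the Hoxb7 pulldown and 16.4% in the Atp6b1v1 pulldown. Without the fold threshold 14113 and 13511 of all 21175 genes passed the adjusted p, in either direction. The median log2 fold change of the 9 genes was -1.40 and -1.26, against 0.107 over all genes in both.

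Plvap, the diaphragm protein, fell most. It was at 183 ± 30.1 CPM in total RNA (SD, n = 21), at 12.1 ± 1.72 in the Hoxb7 pulldown (n = 10) and at 12.7 ± 2.62 in the Atp6b1v1 pulldown (n = 11), log2 fold changes of -3.89 and -3.78. The other genes called in both pulldowns were Egfl7 (-2.21 and -2.01), Eng (-2.06 and -1.58), Emcn (-1.80 and -1.46), Pecam1 (-1.40 and -1.26) and Tek (-1.13 and -1.18). Cdh5 (-0.96 and -0.81), Kdr (-0.81 and -0.59) and Flt1 (-0.70 and -0.82) passed on adjusted p alone. Sox17 was at 15.6 ± 3.13 CPM in total RNA, 10.3 ± 6.20 in the Hoxb7 pulldown and 12.9 ± 6.78 in the Atp6b1v1 pulldown (log2 differences of -0.71 and -0.15), and its values in the pulldowns overlapped those in total RNA.

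The unequal differences from total RNA changed the order of the genes per exon length. In total RNA Plvap led with 92.1 CPM per kb, followed by Eng (29.9), Emcn (16.5), Pecam1 (13.6), Egfl7 (12.2), Cdh5 (11.7), Tek (9.32), Kdr (7.84), Flt1 (6.22) and Sox17 (3.27). Plvap and Eng were the one pair of neighbours in that order whose ranges over the 21 libraries did not overlap. In the pulldowns Eng came first, with 7.15 and 9.54 CPM per kb, followed by Plvap with 6.10 and 6.38 and Cdh5 with 5.98 and 6.35, and the ranges of all these neighbours overlapped. Plvap was above Cdh5 in 6 of 10 Hoxb7 and 6 of 11 Atp6b1v1 libraries. Between the pulldowns themselves no gene was called, where 4.11% of all genes were. Of all 21175 genes 2103 passed the adjusted p without the fold threshold, and so did 2 of the 9 genes. These were Emcn (log2 difference 0.34 higher in Atp6b1v1, adjusted p = 0.00534) and Eng (0.48, 0.0055).

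**Figure D2:**
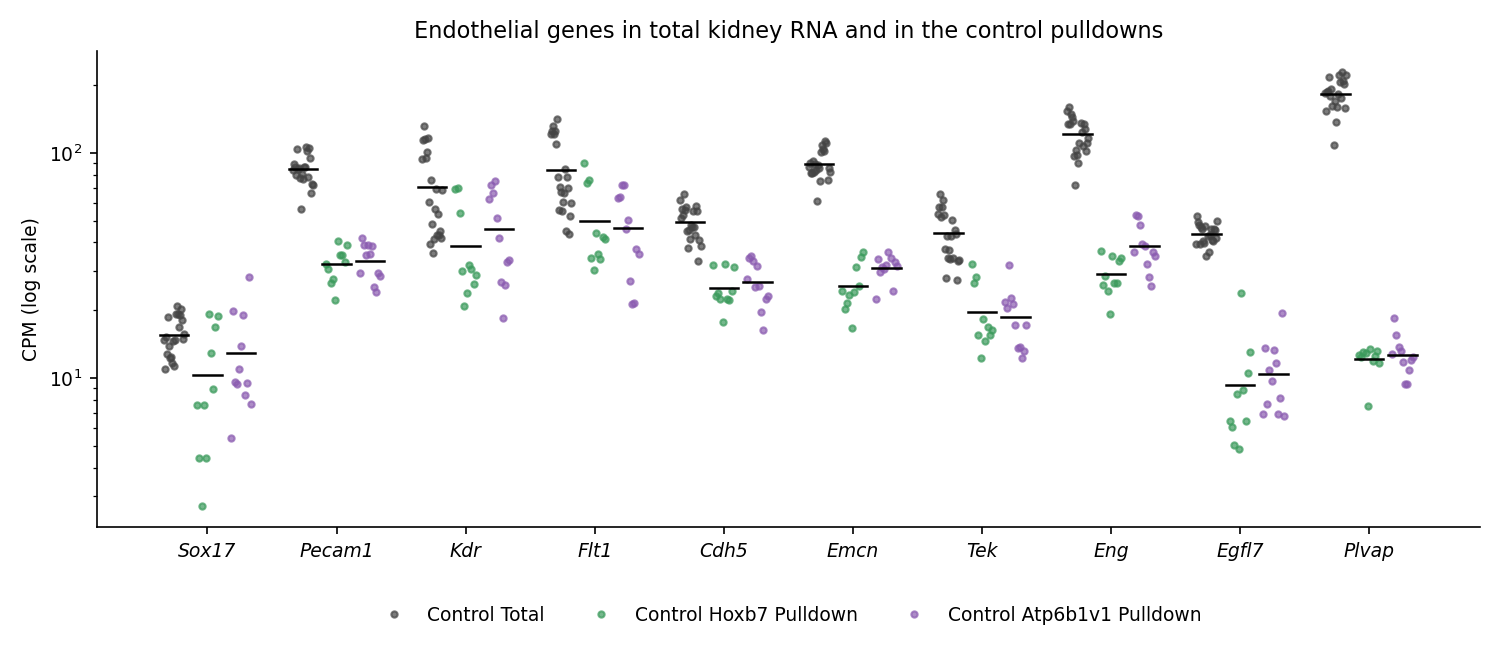
Levels of the 10 genes in the control libraries in CPM on a log axis; points are libraries of total kidney RNA (n = 21), Hoxb7 pulldown (n = 10) and Atp6b1v1 pulldown (n = 11), and bars are group means. Total RNA lies furthest above the pulldowns for Plvap (mean of 183 CPM against 12.1 and 12.7), and for Sox17 the groups overlap.

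Volume depletion of males raised a subset of the endothelial genes in the Hoxb7 pulldown. Cdh5, Egfl7, Eng and Flt1 rose, 4 of the 9, where 9.61% of all genes were called higher. None of the 9 was called lower, where 1443 of all 21175 genes were. Pecam1, Kdr, Tek and Emcn did not pass the test, and Plvap passed on adjusted p alone. The median log2 fold change of the 9 was 0.83, against 0 over all genes. The summed level of the 9 was 151 to 288 CPM in the controls and 369 to 488 CPM in the volume-depleted males. The 2 controls of series A were at 276 and 288 CPM and the 2 of series B at 151 and 199 CPM. Every depleted library was in series A. In bulk RNA more cells of a type, more RNA per cell and a larger labelled share of that RNA cannot be told apart.

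Sox17, whose rise chose it, was at 4.42, 2.71, 7.56 and 4.41 CPM in the 4 control libraries and at 25.6, 30.0 and 28.2 CPM in the 3 vAKI libraries. The groups were far apart, with a log2 fold change of 2.55 ± 0.42 (SE).

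Egfl7, the secreted matrix protein, came nearest to it among the 9. Its levels were 6.03, 5.04, 8.49 and 4.83 CPM in the controls and 27.1, 23.3 and 29.4 CPM after volume depletion, without overlap. The log2 fold change was 2.13 ± 0.29 (SE), with an adjusted p of 7.54e-06.

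Cdh5, the cadherin of the endothelial junction, was at 23.2, 23.8, 22.5 and 17.8 CPM in the controls and at 61.0, 87.8 and 85.9 CPM after volume depletion. The lowest depleted library was above every control, and the log2 fold change was 1.85 ± 0.22 (SE, adjusted p = 1.89e-06). Pecam1, its partner at the junction, had a smaller difference. It was at 30.4, 26.5, 27.5 and 22.2 CPM in the controls and at 28.8, 42.1 and 30.9 CPM after depletion, and the groups overlapped (log2 fold change 0.36 ± 0.16, adjusted p = 0.0879).

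Eng, the BMP9 co-receptor, was at 25.96, 28.4, 24.3 and 19.3 CPM in the controls and at 48.8, 64.4 and 63.9 CPM after depletion, again without overlap. Its log2 fold change was 1.28 ± 0.18 (SE, adjusted p = 9.5e-06). Within series A, where 2 control and 3 depleted Hoxb7 libraries remained, Egfl7 (2.28), Cdh5 (1.75) and Eng (1.13) were still called, and Sox17 was higher by 2.97. With both sexes in the fit and sex as a covariate Cdh5 (1.12, adjusted p = 0.00175) and Egfl7 (1.07, adjusted p = 0.04) were called, and Eng (0.70) and Flt1 (0.85) were below the fold threshold.

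The VEGF receptors took different values, and both moved with the series. Flt1 was at 73.4 and 75.6 CPM in the 2 series A controls and at 34.1 and 30.0 CPM in the 2 of series B. After depletion it was at 85.9, 133 and 114 CPM, above all controls (log2 fold change 1.07 ± 0.28, adjusted p = 0.00515). Within series A the difference was 0.59 (adjusted p = 0.0173), below the fold threshold, and the call was also lost without control 4 (0.90), control 5 (0.87) or vAKI 6 (0.92). Kdr was at 69.7 and 54.2 CPM in the series A controls, at 29.8 and 20.9 CPM in those of series B and at 47.8, 65.6 and 47.8 CPM after depletion. Its log2 fold change was 0.31 ± 0.34 (adjusted p = 0.521), and within series A it was -0.19.

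The angiopoietin receptor Tek was at 26.5 and 27.9 CPM in the series A controls, at 15.5 and 12.3 CPM in series B and at 29.2, 22.04 and 25.1 CPM after depletion. The log2 fold change was 0.32 ± 0.22 (adjusted p = 0.282), and -0.09 within series A. Emcn was at 20.2, 21.6, 23.4 and 16.6 CPM in the controls and at 21.2, 27.8 and 24.1 CPM after depletion, a log2 fold change of 0.26 ± 0.15 (adjusted p = 0.201). Plvap was at 12.3, 13.0, 12.9 and 7.50 CPM in the controls and at 19.5, 21.4 and 19.7 CPM after depletion. The Plvap groups did not overlap, but its log2 fold change of 0.83 ± 0.19 (adjusted p = 0.00139) was below the fold threshold.

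**Figure D3:**
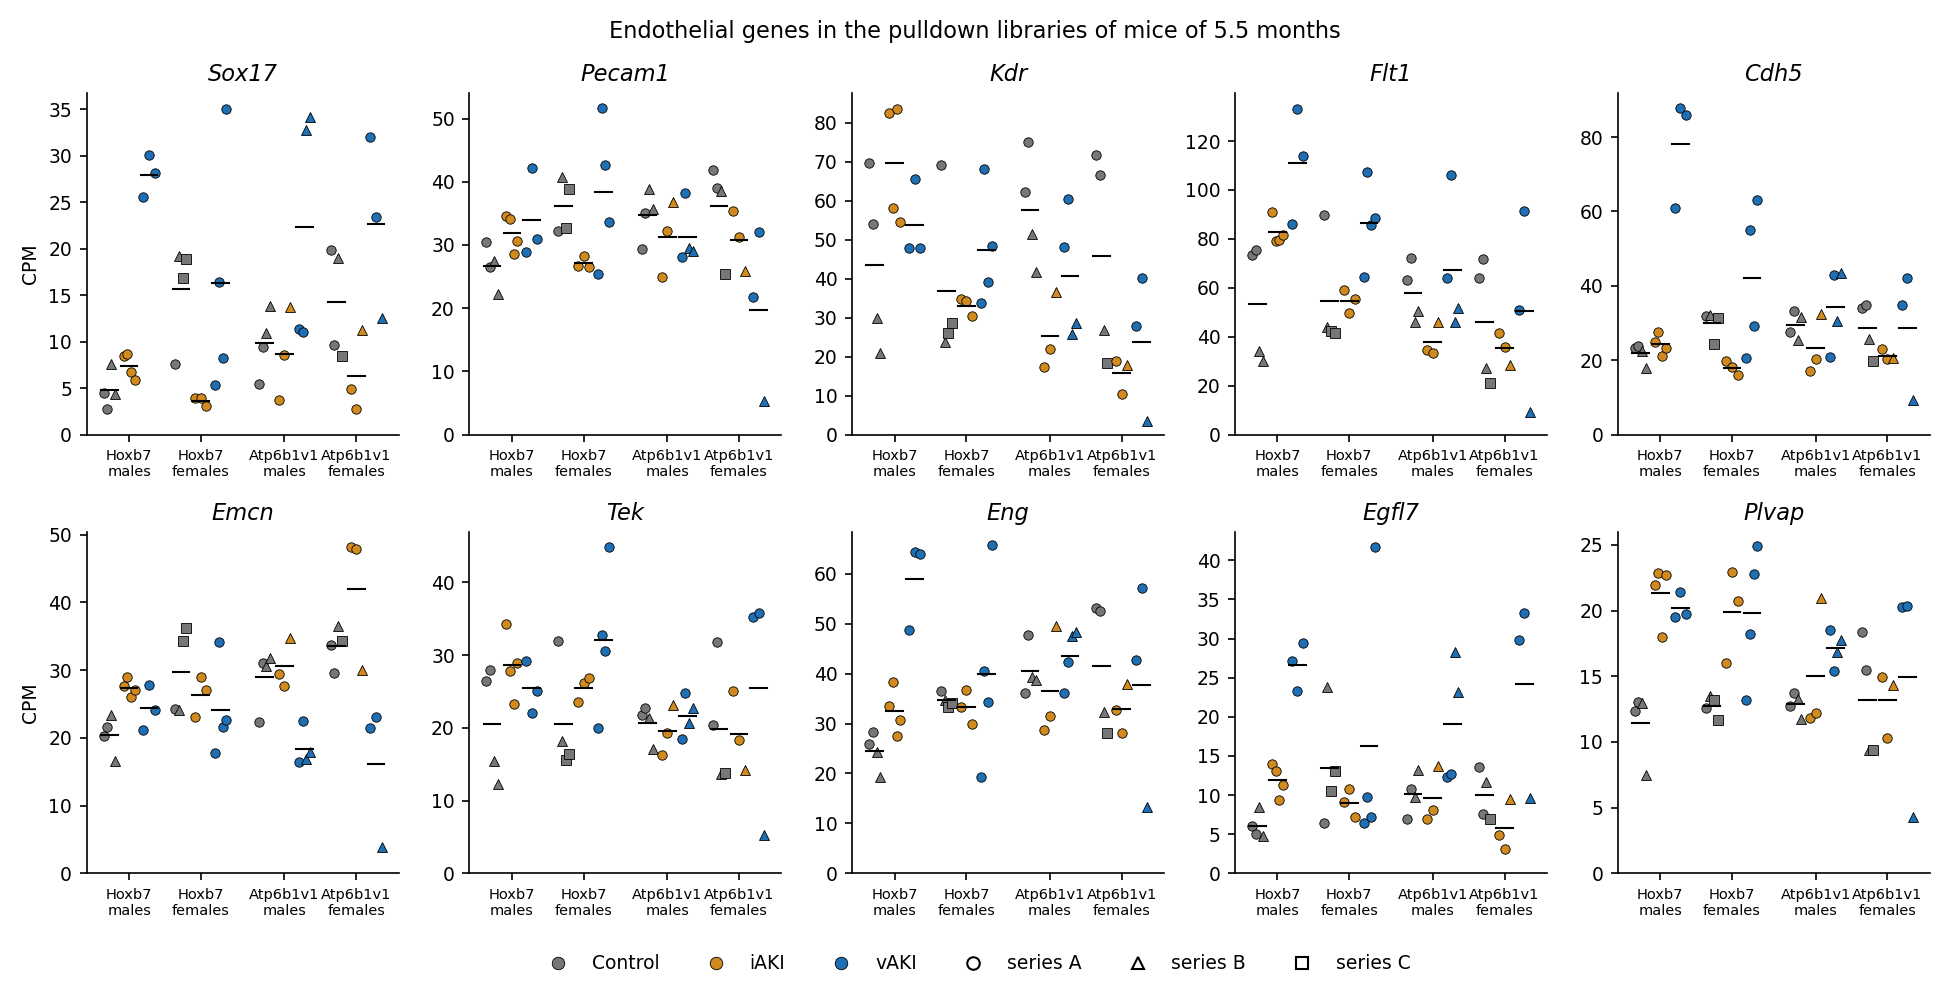
Levels of the 10 genes in 43 pulldowns (all from mice aged 5.5 months), in CPM on linear axes from 0; each point is a library, coloured by treatment and shaped by series of library numbers, and bars are means of each driver, sex and treatment. In Hoxb7 males the vAKI points of Sox17, Egfl7, Cdh5 and Eng lie above all control and iAKI points, while those of Kdr lie within the range of the controls.

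The sequences around the transcription starts give context for genes that differed in response. The RefSeq promoter table (GRCm38.p6, 250 bases before to 50 after the start) held 8 starts of 6 of the genes, Kdr, Flt1, Emcn, Tek, Eng and Egfl7. Sox17, Pecam1, Cdh5 and Plvap had no entry. The promoters were searched on both strands for GGAAG, which reads CTTCC on the opposite strand, the core of many ETS factor motifs, since ETS factors are general regulators of endothelial genes. Shown are Egfl7 (its first of 3 starts) and Eng, which rose, and Emcn and Tek, which did not pass the test, each 5′ to 3′ on the strand of the gene with GGAAG or CTTCC in capitals.
Egfl7, chr2:26580833-26581132 (plus strand): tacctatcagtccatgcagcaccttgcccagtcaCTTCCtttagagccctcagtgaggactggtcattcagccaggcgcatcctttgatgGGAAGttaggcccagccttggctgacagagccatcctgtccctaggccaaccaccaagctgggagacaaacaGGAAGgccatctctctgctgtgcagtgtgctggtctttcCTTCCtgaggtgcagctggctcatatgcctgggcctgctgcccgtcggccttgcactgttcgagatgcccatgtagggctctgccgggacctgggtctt
Eng, chr2:32646345-32646644 (plus strand): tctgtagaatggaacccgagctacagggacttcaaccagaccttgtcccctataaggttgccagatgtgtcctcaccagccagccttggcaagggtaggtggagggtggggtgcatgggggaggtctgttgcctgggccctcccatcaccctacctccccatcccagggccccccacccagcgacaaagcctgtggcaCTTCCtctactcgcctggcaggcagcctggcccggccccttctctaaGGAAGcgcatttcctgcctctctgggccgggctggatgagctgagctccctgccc
Emcn, chr3:137340828-137341127 (plus strand): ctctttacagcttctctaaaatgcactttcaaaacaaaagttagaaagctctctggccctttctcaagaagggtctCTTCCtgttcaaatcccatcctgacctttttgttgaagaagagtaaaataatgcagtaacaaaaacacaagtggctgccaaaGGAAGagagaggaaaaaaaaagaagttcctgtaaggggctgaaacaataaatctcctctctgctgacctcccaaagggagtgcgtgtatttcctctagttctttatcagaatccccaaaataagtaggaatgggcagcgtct
Tek, chr4:94739039-94739338 (plus strand): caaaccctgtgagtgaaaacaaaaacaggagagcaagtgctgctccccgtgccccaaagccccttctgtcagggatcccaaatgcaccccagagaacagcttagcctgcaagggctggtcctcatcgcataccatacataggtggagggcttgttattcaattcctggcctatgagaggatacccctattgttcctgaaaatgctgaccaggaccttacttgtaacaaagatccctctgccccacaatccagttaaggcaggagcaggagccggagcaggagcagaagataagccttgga
The Egfl7 promoter printed held 4 matches, those of Eng and Emcn 2 each and that of Tek none, and the other starts held 3 and 0 (Egfl7), 3 (Flt1) and 1 (Kdr). A match was found in 6 of the 8 starts (75.0%), against 71.4% of all 32851 promoters of the same length, a share near that of all promoters. ACAAT or ATTGT, the core of SOX factor motifs, occurred in Emcn (1 match) and Tek (2 matches) and in no other of the 8 starts, against 31.0% of all promoters. CACCC or GGGTG, the core of KLF factor motifs, occurred in 5 of the 8 starts, with 4 matches in Eng, 2 in the second start of Egfl7 and 1 each in Kdr, Flt1 and Tek, against 57.5% of all promoters. Matches of these letters are a description and not evidence of binding.

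A list of 34 other endothelial genes, none of them among the 10, was read in the same comparison of Hoxb7 males. This list, like those of ligands and cell markers below, was chosen with earlier results of these data known. Its counts are therefore a description and not an independent test. After volume depletion 14 of the 34 rose, where 9.61% of all genes were called higher, none was called lower, and the median log2 fold change was 0.92 against 0 over all genes. The largest values were those of S1pr1, the sphingosine 1-phosphate receptor that strengthens the endothelial barrier (3.82 ± 0.41, adjusted p = 5.93e-07), and of Sox7, a relative of Sox17 (3.05 ± 0.38, adjusted p = 2.74e-06). The lowest were Nrp1, a VEGF co-receptor (-0.70 ± 0.23, adjusted p = 0.0202), and Myct1 (-0.59 ± 0.36, adjusted p = 0.229), neither of which was called. Sox18, the third of the related SOX factors, was at 1.07 ± 0.42 with an adjusted p of 0.0502. As with Cdh5 and Pecam1, adhesion genes took different values. Esam rose by 1.76 and Cldn5 by 1.65, and Icam2 was at -0.27 and was not called. Sox18, Esam, Cldn5 and Icam2 were named after their values were seen.

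**Figure D4:**
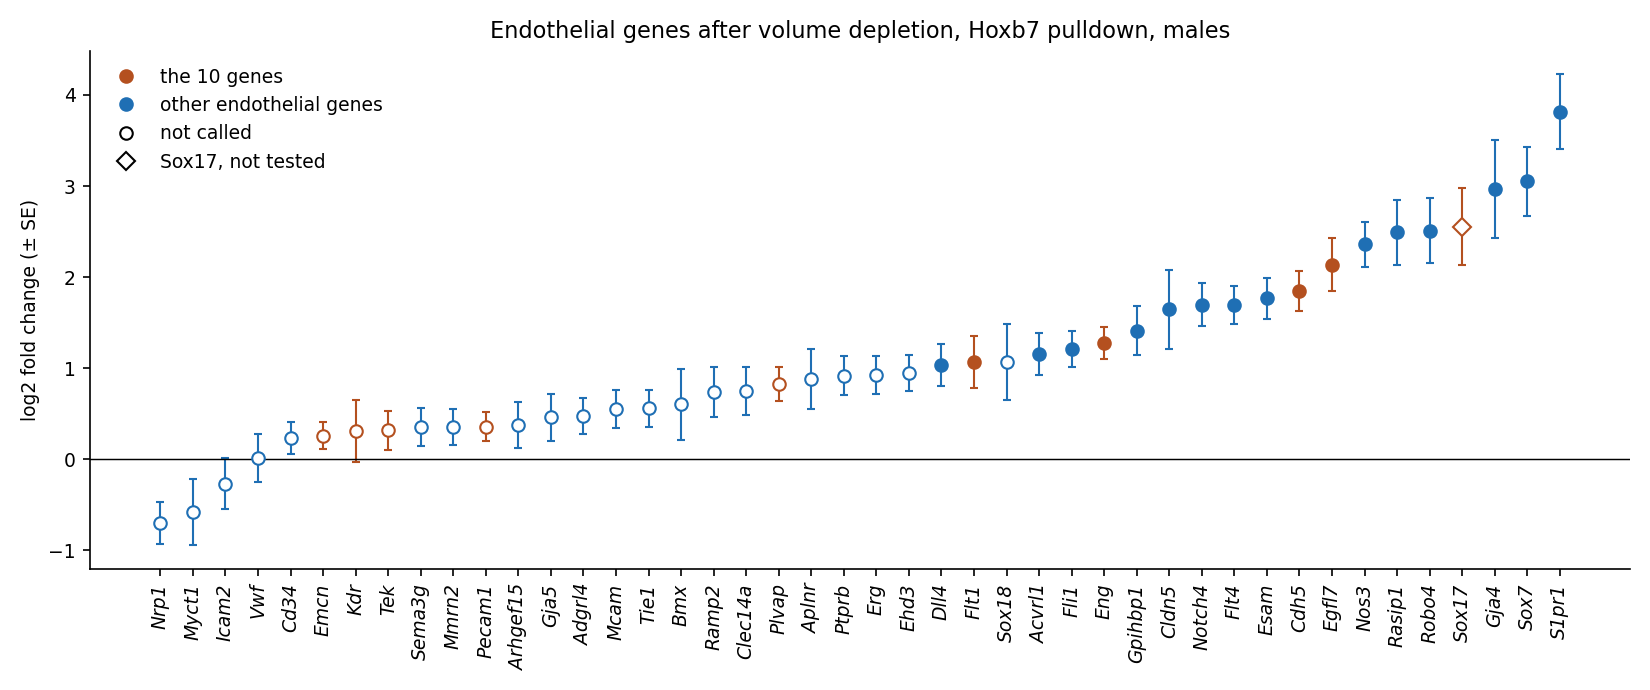
Log2 fold change ± SE of the 10 genes and of 34 other endothelial genes after volume depletion in the Hoxb7 pulldown of males, in rising order; filled circles were called, open circles were not, and the open diamond is Sox17, for which no test is given. The genes run from Nrp1 at -0.70 to S1pr1 at 3.82, and the 10 genes are spread from Emcn at 0.26 to Sox17 at 2.55.

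Of 11 genes for ligands of these receptors, 3 rose in the same comparison, where 9.61% of all genes were called higher, and none was called lower. Bmp10 had 0 counts in the 22 males and Gdf2, which encodes BMP9, a mean of 0.36, so the list holds members with almost no counts. Vegfa, the ligand of Kdr and Flt1, rose by 1.27 ± 0.16 (adjusted p = 4.09e-06; named after its value was seen), Pgf, a ligand of Flt1, by 1.87 ± 0.56 (adjusted p = 0.0112) and Angpt2, a ligand of Tek, by 1.504 ± 0.45 (adjusted p = 0.0122). Pgf was near the floor, at 0 to 0.33 CPM in the controls and at 0.45 to 0.91 CPM after depletion. Vegfb, another ligand of Flt1, was at -0.93 ± 0.20 (adjusted p = 0.000817), and Angpt1, the activating ligand of Tek, at -0.56 ± 0.24 (adjusted p = 0.0725). The summed level of the 11 was 251 to 315 CPM in the controls and 549 to 708 CPM in the depleted males. That sum was mostly Vegfa, which had a mean of 6681 counts over the 22 males, against 428 for Angpt1, the next highest. In Hoxb7 females none of the 11 was called, where 0.0992% of all genes were (Vegfa 0.11, Pgf -0.52, Angpt2 -0.12). In Atp6b1v1 males Angpt2 was called higher (1.55, adjusted p = 0.0168), where 3.45% of all genes were.

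Markers of other cells moved in the same libraries, and their part in the endothelial result was not tested. Of all 21175 genes 9.61% were called higher in this comparison and 1443 genes were called lower. The podocyte marker Synpo rose (1.74), and Nphs1, which encodes nephrin of the slit diaphragm, was at -0.55 (adjusted p = 0.392). Of mural cell markers 2 of 8 rose, Des (1.31) and Tagln (1.02), with summed levels of 93.6 to 151 CPM in the controls and 150 to 197 CPM after depletion. Pdgfra rose among 6 fibroblast markers (1.23), with sums of 32.6 to 71.2 and 74.8 to 114 CPM. Of 8 leukocyte markers Cd68 rose (2.06) and Itgam fell (-2.11), with sums of 70.8 to 100.4 and 82.4 to 100.01 CPM. Of red cell markers the 6 hemoglobin genes were listed with 0 counts in all 69 libraries, and Alas2 was at -0.76 (adjusted p = 0.0915).

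None of the markers of tubules and of fat was called higher, where 9.61% of all genes were. Of all 21175 genes 1443 were called lower. Of collecting duct markers 4 of 5 of principal cells fell, Avpr2 (-2.97) and Aqp4 (-1.95) most, with sums of 2608 to 3322 CPM in the controls and 1050 to 1158 CPM after depletion, and 4 of 6 of intercalated cells fell, Foxi1 (-1.85) and Slc4a1 (-1.37) most, with sums of 597 to 989 and 436 to 683 CPM. Of 3 markers of the thick ascending limb Slc12a1 (-1.28) and Umod (-1.05) fell, and the sums were 1335 to 2328 and 772 to 857 CPM. None of 6 proximal tubule markers was called, with sums of 1733 to 3106 and 2334 to 2560 CPM. Of 5 fat cell markers 3 fell, Ucp1 (-2.73) and Plin1 (-1.46) among them, with sums of 51.5 to 136 and 54.5 to 94.1 CPM.

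After ischemia none of the 9 genes was called in the Hoxb7 pulldown of males, where 2.30% of all genes were. Without the fold threshold 2 of the 9 passed the adjusted p, as did 1298 of all 21175 genes. An unadjusted p under 0.05 was found for 7 of the 9, a count for which no share of all genes is given. The median log2 fold change of the 9 was 0.49. Egfl7 was at 14.0, 13.1, 9.39 and 11.3 CPM after ischemia, above every control, with a log2 fold change of 0.99 ± 0.27 (adjusted p = 0.0337), just below the fold threshold. Within series A it was 1.10 (adjusted p = 0.00283) and was called, as it was without control 4 (1.17) or iAKI 6 (1.09). Plvap was at 21.9, 22.9, 18.0 and 22.7 CPM, also above every control, with a log2 fold change of 0.92 ± 0.18 (adjusted p = 0.00403). Cdh5 was at 24.98, 27.5, 21.1 and 23.3 CPM (log2 fold change 0.16), and Eng was at 33.4, 38.3, 27.5 and 30.7 CPM (0.42). Sox17 was at 8.41, 8.65, 6.73 and 5.89 CPM, a log2 fold change of 0.65 ± 0.40. Kdr (0.69, adjusted p = 0.214) and Flt1 (0.65, adjusted p = 0.156) moved with the series here too, and both were near 0 within series A (0.16 and 0.14).

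The libraries of both injuries can be set against each other without the controls. In the Hoxb7 pulldown Cdh5 and Egfl7 were called higher after volume depletion than after ischemia, with log2 differences of 1.68 (adjusted p = 6.23e-06) and 1.15 (adjusted p = 0.00307), where 8.15% of all genes were called higher. Eng differed by 0.85 (adjusted p = 0.000674), below the fold threshold, and Sox17 by 1.91. In this comparison every library was in series A. With both sexes in the fit Egfl7 was at 0.96, below the fold threshold. In the Atp6b1v1 pulldown Egfl7 alone of the 9 was called higher after depletion (1.01, adjusted p = 0.0119), where 7.16% of all genes were, and Sox17 differed by 1.38. This Egfl7 call, close to the fold threshold, was lost without any 1 of 6 libraries, which were iAKI Hoxb7 5 (0.99), control Hoxb7 4 (0.99), iAKI Atp6b1v1 1 (0.80) or 4 (0.89) and vAKI Atp6b1v1 6 (0.76) or 7 (0.88). It was also lost within series A (0.75). Flt1 (0.85, adjusted p = 0.0317) and Emcn (-0.71, adjusted p = 0.00113) passed on adjusted p alone.

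In the Atp6b1v1 pulldown of males none of the 9 genes was called after volume depletion, where 5.15% of all genes were called. Without the fold threshold 1 of the 9 passed the adjusted p as higher and 1 as lower, where 3086 of all 21175 genes passed. An unadjusted p under 0.05 was found for 3 of the 9, again with no share of all genes given. Sox17 was at 5.40 and 9.44 CPM in the series A controls, at 10.9 and 13.8 CPM in those of series B, at 11.38 and 11.1 CPM in the depleted libraries of series A and at 32.7 and 34.2 CPM in those of series B. The depleted libraries of series B were the 2 highest, and the log2 fold change of 1.18 ± 0.38 was 0.60 within series A. Egfl7 followed the same split. It was at 6.91, 10.8, 9.71 and 13.3 CPM in the controls and at 12.3, 12.7, 28.3 and 23.2 CPM after depletion, with a log2 fold change of 0.92 ± 0.27 (adjusted p = 0.024), which was 0.50 within series A. It was called without vAKI 1 (1.08), vAKI 2 (1.07) or control 11 (1.08).

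Emcn had the opposite sign in the Atp6b1v1 pulldown, at 22.4, 31.0, 30.6 and 31.8 CPM in the controls and at 16.5, 22.4, 16.8 and 17.9 CPM after depletion. The ranges met at 22.4 CPM, and the log2 fold change was -0.64 ± 0.14 (adjusted p = 0.0043), short of the fold threshold. Cdh5, at 27.5, 33.2, 25.4 and 31.5 CPM in the controls, was at 21.0, 42.9, 30.5 and 43.4 CPM after depletion, and Eng, at 36.1, 47.8, 39.4 and 38.6 CPM, was at 36.2, 42.3, 47.6 and 48.4 CPM. Both overlapped their controls. Of the 34 other endothelial genes, 4 rose in this pulldown, where 3.45% of all genes were called higher, with a median log2 fold change of 0.20.

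In males the responses to volume depletion differed between the drivers for Cdh5 and Eng. Tested as the Hoxb7 response minus the Atp6b1v1 response, the difference was 1.60 ± 0.30 for Cdh5 (adjusted p = 0.00384) and 1.15 ± 0.24 for Eng (adjusted p = 0.00837), 2 of the 9 genes, where 1.60% of all genes were called higher. Emcn differed by 0.89 (adjusted p = 0.0145) and was called without vAKI Atp6b1v1 2 (1.00). Sox17 differed by 1.38 ± 0.56. With both sexes in the fit and sex as a covariate neither Cdh5 (0.99, adjusted p = 0.202) nor Eng (0.69, adjusted p = 0.346) was called. Among the 34 other endothelial genes 8 were called higher in this difference and none lower.

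Ischemia lowered Kdr in the Atp6b1v1 pulldown. Kdr was at 62.2 and 75.1 CPM in the series A controls, at 51.6 and 41.7 CPM in those of series B, at 17.3 and 21.9 CPM in the ischemic libraries of series A and at 36.5 CPM in that of series B. All ischemic libraries were below all controls, and the log2 fold change was -1.19 ± 0.35 (adjusted p = 0.0362), the one call among the 9 genes, where 1.68% of all genes were called lower. Within series A it was -1.82 (adjusted p = 0.000266), and the call was lost without control 6 (-1.16), control 9 (-1.04), iAKI 1 (-0.97) or iAKI 4 (-1.10) and with 3 control males of 3 months added (-0.86). Sox17 was at 3.76, 8.56 and 13.7 CPM after ischemia, a log2 fold change of -0.20 ± 0.42. The Kdr responses to ischemia differed between the drivers by 1.88 ± 0.47 (adjusted p = 0.0178), where 1.88% of all genes were called higher, and this call was lost without iAKI Atp6b1v1 1 (1.64) or 4 (1.76).

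**Figure D5:**
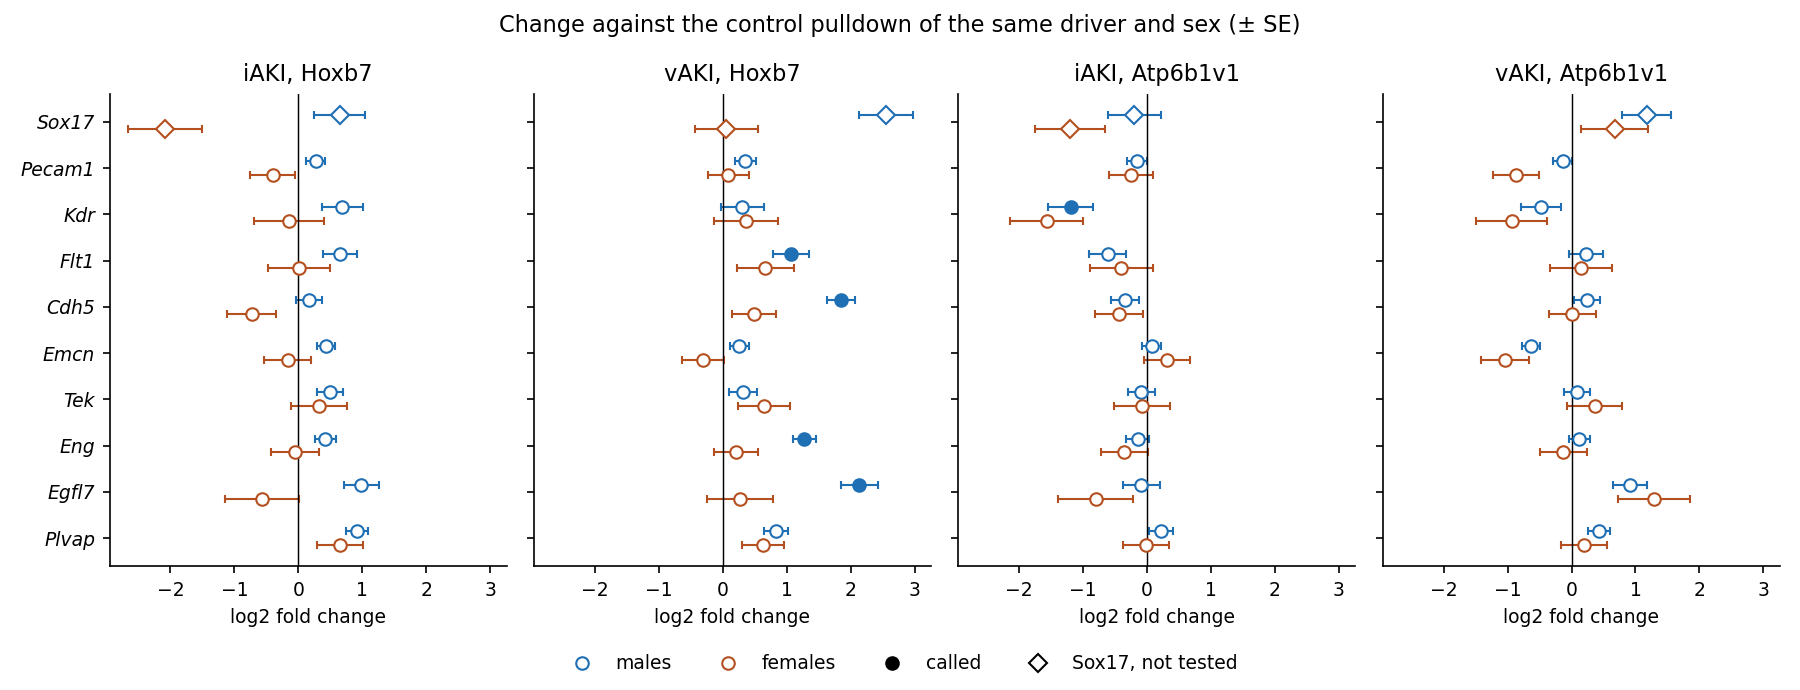
Log2 fold change ± SE of the 10 genes against the control pulldown of the same driver and sex, for ischemia and volume depletion in the Hoxb7 and Atp6b1v1 pulldowns of males (blue) and females (orange); filled circles were called, and diamonds are Sox17, for which no test is given. Filled circles appear in males alone, for Flt1, Cdh5, Eng and Egfl7 after volume depletion in Hoxb7 and for Kdr (-1.19) after ischemia in Atp6b1v1.

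In females none of the 9 genes was called in any of the 4 injury comparisons. The shares of all genes called were 0.0992% for volume depletion and 2.08% for ischemia in the Hoxb7 pulldown, and 9.89% and 1.15% in the Atp6b1v1 pulldown. Without the fold threshold none of the 9 passed the adjusted p either, where 23, 665, 3815 and 563 of all 21175 genes did in the same order. An unadjusted p under 0.05 was found for 0, 0, 3 and 1 of the 9, with no share of all genes given. The female Hoxb7 libraries spread widely. Sox17 was at 7.56, 19.2, 16.9 and 18.9 CPM in the controls and at 5.30, 16.4, 8.24 and 35.1 CPM after volume depletion, so that the log2 fold change was 0.06 ± 0.49. After ischemia it was at 3.98, 3.93 and 3.03 CPM, below every control, with a log2 fold change of -2.09 ± 0.58. All these ischemic libraries were in series A, and of the controls only control 1, at 7.56 CPM, was. Series and treatment therefore cannot be fully told apart in this comparison.

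The same spread was seen in the genes that rose in males. Cdh5 was at 31.8, 32.2, 24.3 and 31.2 CPM in female Hoxb7 controls and at 20.6, 55.0, 29.3 and 63.0 CPM after depletion (log2 fold change 0.49, adjusted p = 0.785). Egfl7 was at 6.45, 23.8, 10.5 and 13.1 CPM in the controls and at 6.37, 9.76, 7.23 and 41.7 CPM after depletion (0.27), and Eng at 36.6, 34.7, 33.2 and 34.1 CPM and at 19.2, 40.5, 34.3 and 65.7 CPM (0.20). In all 3 genes and in Sox17 the highest depleted library was vAKI 5. Without it, a choice made after these values were seen, the log2 fold changes were 0.22 for Cdh5, -0.80 for Egfl7, -0.16 for Eng and -0.66 for Sox17.

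The difference between the sexes in the response of the Hoxb7 pulldown to volume depletion was itself called for Cdh5 (males minus females 1.36 ± 0.43, adjusted p = 0.0293) and Egfl7 (1.87 ± 0.65, adjusted p = 0.0434), 2 of the 9 genes, where 10.8% of all genes were called in either direction. Eng differed by 1.08 (adjusted p = 0.0634) and Sox17 by 2.503 ± 0.69. Without vAKI female 5 the differences were 1.63 for Cdh5, 2.93 for Egfl7 and 1.42 for Eng. That library was left out after its high values in these genes were seen. The larger differences therefore follow from that choice and are given as a description. The female controls came from series A, B and C and the depleted females from series A alone, so series and treatment cannot be fully told apart there.

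Female Atp6b1v1 libraries gave Egfl7 a log2 fold change of 1.29 after volume depletion (adjusted p = 0.114) and Emcn one of -1.04 (adjusted p = 0.0545). Without the low library, vAKI female 5, left out after its low values were seen, Egfl7 was at 1.67. Of the 34 other endothelial genes none was called in either female pulldown after volume depletion, with medians of 0.07 in Hoxb7 and -0.19 in Atp6b1v1. The shares of all genes called were 0.0992% in Hoxb7, where almost no gene was called, and 9.89% in Atp6b1v1.

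The genes whose pattern was most like that of Sox17 were ranked by Pearson's correlation of log2 CPM over the 22 males, which share their controls and their normalization, among 15125 genes. The first 5 were Klf2 (0.965), 2410006H16Rik (0.957), Cebpd (0.956), Gja4 (0.954) and Gadd45a (0.953). Klf2 encodes a transcription factor known to respond to blood flow in endothelium, and Gja4 encodes connexin 37, a gap junction protein of arterial endothelium. Cebpd and Gadd45a respond to stress in many cell types. In the Hoxb7 pulldown their log2 fold changes after volume depletion were 3.36 for Klf2, 4.18 for Cebpd, 2.96 for Gja4, 2.01 for Gadd45a and 1.83 for 2410006H16Rik, and in the Atp6b1v1 pulldown they were 1.25, 2.41, 1.40, 0.92 and 0.79. These 5 genes were picked in the same libraries for following Sox17, itself chosen by its rise. Their rises therefore follow from that choice and are given as a description. Of the 9 genes Egfl7 ranked highest, at place 14 with a correlation of 0.944. Eng (0.834) and Cdh5 (0.771) followed at places 721 and 1320. Plvap (0.501), Pecam1 (0.430), Flt1 (0.269), Tek (0.121), Kdr (-0.04) and Emcn (-0.09) had the lower values.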

How the data were processed

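Poly(A) RNA from kidney pulldowns (and total kidney RNA of controls) was sequenced on an Illumina sequencer by the authors. The authors deposited raw counts per gene. Per the labels and the study's methods, reads were called with CASAVA 1.8.2, trimmed with Trimmomatic 0.36, aligned to mm10 with STAR 2.5.3a and counted with HTSeq 0.6.1p2, which with its default settings reads strand and leaves out reads that map to several places. The gene annotation version and whether the kit marked strand are not given in the sources used here. Library totals were 12618062 to 30305464 counts, and the standard errors of the fits come from the spread between libraries beyond counting error.

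Counts were normalized by TMM and tested with edgeR 4.0.16 (quasi-likelihood, R 4.3.3) on 21175 genes with at least 2 counts over 69 libraries. Calls needed an adjusted p (Benjamini-Hochberg) under 0.05 together with a change of at least 1 on the log2 scale. Males of 5.5 months were fitted together by driver and treatment, the females likewise, the sexes together for the difference between them, and controls with sex as a covariate. The script was tested on simulated data. DESeq2 1.42.0, another normalization and filter, other samples and leaving out each library were alternatives. The positions and exon lengths are of GENCODE vM21 (GRCm38), the promoters RefSeq's. The members and gene lists were chosen with earlier results of these data known. The genes named beside the 10 were the 2 highest and 2 lowest of each list after volume depletion in Hoxb7 males with a mean of at least 10 counts, or those most like Sox17. Of these lists only genes that bear on a result are printed. A single gene of the marker lists, and the counts and sums that include it, are not reported here. The numbers of replicates in the labels were not used to pair libraries in the main fits. Among the 22 male pulldowns the deviations of same-numbered libraries had a mean correlation of 0.002 over 20 pairs (-0.419 to 0.308). That check held no total library, so it cannot tell whether total and pulldown libraries are paired. No 2 libraries of a group agreed within sampling noise.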

Additional observations from a re-analysis of the deposited data

Results flagged for a closer look

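Single libraries lay far from the rest of their group in 10 of 90 checks of a gene in a group of 4 to 10 libraries, where chance flags about 1 in 20 by Dixon's criterion. Female Hoxb7 control 1, the one library of series A in its group, was the highest for Kdr (69.2 CPM), Flt1 (89.9 CPM) and Tek (32.0 CPM). Female Hoxb7 control 9 was the lowest for Cdh5 (24.3 CPM), male Hoxb7 control 5 for Plvap (7.50 CPM) and male Atp6b1v1 control 6 for Emcn (22.4 CPM). In total RNA of males of 5.5 months, library 9 was the lowest for Pecam1 (56.4 CPM) and Emcn (60.9 CPM). Male vAKI Atp6b1v1 library 2 was the highest for Pecam1 (38.2 CPM), and female vAKI Hoxb7 library 5 for Egfl7 (41.7 CPM).

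Responses differed between groups by a test of the difference in 6 cases. Between drivers in males the log2 difference, Hoxb7 minus Atp6b1v1, was 1.88 for Kdr after ischemia (adjusted p = 0.0178), and after volume depletion 1.60 for Cdh5 (0.00384), 1.15 for Eng (0.00837) and 0.89 for Emcn (0.0145). Between sexes, males minus females, the response of the Hoxb7 pulldown to volume depletion differed by 1.87 for Egfl7 (adjusted p = 0.0434) and by 1.36 for Cdh5 (0.0293).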

How the results depend on the processing

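Over 1794 values of these results under other settings, 1611 kept direction and side of the threshold and 28 changed direction. For the 34 endothelial genes, ligands and cell markers the alternatives were not run. The counts that follow are of the 9 genes called, and where they differ from the main count the cause was not tested unless the setting itself leaves out libraries.

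For volume depletion in Hoxb7 males (4 called) the count was 2 with both sexes and 0 in females, also 0 without vAKI female 5, and 3 to 4 when 1 library was left out. With both sexes, as the study's design had it, Cdh5 and Egfl7 were called and Eng (0.70) and Flt1 (0.85) were not. For ischemia in Hoxb7 males (0 called) it was 2 with the replicate block, 1 with the series as a covariate or series A alone, 2 without a fold threshold and 0 to 1 when 1 library was left out. For ischemia in Atp6b1v1 males (1 called) it was 0 with 3 younger control males added (25 males), in females and with the replicate block, 2 in series A and 0 to 1 when 1 library was left out. For volume depletion in Atp6b1v1 males (0 called) it was 1 with both sexes or the replicate block, 2 without a fold threshold and 0 to 1 when 1 library was left out.

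For volume depletion against ischemia the Hoxb7 count of 2 became 1 with both sexes and 0 in females, with or without vAKI female 5. The Atp6b1v1 count of 1 became 0 without a filter, with only the groups compared or with the series as a covariate, 2 with both sexes, in females or in series A, 3 without a fold threshold and 0 to 2 when 1 library was left out. For the difference between drivers after ischemia (1 called) it was 2 with DESeq2, filterByExpr or only the groups compared, 3 with the series as a covariate or in series A, 0 in females or with the replicate block and 0 to 3 when 1 library was left out. For that after volume depletion (2 called) it was 0 with both sexes or in females, 1 in females without vAKI Hoxb7 female 5, 0 without vAKI Atp6b1v1 female 5, and 1 with the replicate block. Between the control pulldowns (0 called) it was 1 with the replicate block and 2 without a fold threshold.

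Directions changed mostly in females. For ischemia in Hoxb7 they gave -2.09 for Sox17 (both sexes -0.79), -0.73 for Cdh5 (both sexes -0.31), -0.57 for Egfl7, -0.052 for Eng and -0.15 for Kdr. For volume depletion in Hoxb7 Emcn was at -0.31 in females, -0.29 without vAKI female 5 and -0.050 with both sexes. Without vAKI female 5 Sox17 was at -0.66, Egfl7 at -0.80 and Eng at -0.16, and against ischemia Egfl7 was at -0.19 and Eng at -0.070. In Atp6b1v1 females Eng was at -0.13. The driver difference after volume depletion for Sox17 was -0.62 in females, -1.34 without vAKI Hoxb7 female 5 and -0.91 without vAKI Atp6b1v1 female 5, and for Eng -0.034 and -0.066 without these. In series A Kdr was at -0.19 and Tek at -0.086 after volume depletion in Hoxb7, and Eng at -0.10 in Atp6b1v1. The alternatives that use series A alone, or leave out a female library, were chosen after seeing the data.

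With the replicate block, Sox17 was at 1.03 after ischemia in Atp6b1v1 (-0.69 to 0.17 when 1 library was left out), and the driver difference after volume depletion was -0.52. The deviations of same-numbered male pulldowns had a mean correlation of 0.002, and the block left 7 residual degrees of freedom in place of 16.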
